A study of Mus musculus with 8 samples.

Results

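The 36 genes described here encode the enzymes, transporters and structural proteins with which enterocytes digest food at their surface and take up sugars, peptides and amino acids. They were chosen by name, and each was read on the probe that carries its name and has the highest mean log2 intensity over all arrays. The array names 36161 genes, of which 25354 were bright enough to be tested. All 36 members were tested, and all 36 were well above background on all 8 arrays, so that no member was lost to the filter on dim probes.

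RNA came from the small bowel of mouse embryos at stage E18.5, just before birth, in 4 control and 4 mutant samples, each on its own array. The mutants carried 2 floxed alleles of Rfx6, a transcription factor gene of endocrine cells, and the Ngn3-cre transgene (Rfx6 fl/fl Ngn3-cre). Control replicates 1, 3 and 4 were Rfx6 fl/+, with 1 floxed allele, and control replicate 2 was Rfx6 fl/fl, with 2. Ngn3-cre is labelled in the mutants alone, and an influence of the transgene itself cannot be told apart from that of the deletion. Ngn3 (Neurog3) marks progenitors of endocrine cells, so that the absorptive cells that build the brush border are not the intended site of the deletion. For mutant replicates 2 to 4 the free text of the labels names a different Rfx gene from the title, and the title was followed. Litter, sex and pooling are not given, so the p-values measure the spread between these samples. The comparison asks which intestinal genes differ when endocrine cells lack Rfx6, and here it is read for the absorptive surface.

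Levels are log2 intensities from which each array's 75th percentile was subtracted, and a difference is mutant minus control on that log2 scale, where 1 is a 2-fold difference. Probes differ in brightness, so levels are compared between arrays and never between genes. The 75th percentile lay between 788 and 1027 intensity units, and the share of probes well above background between 59.7% and 69.9%. Mutant replicate 1 stood apart before any gene was considered, and its correlation across genes with each other array averaged 0.9777, against 0.9899 to 0.9914 for the rest. The counts by role, and the values of members that moved most with it, are therefore given with and without it. The Rfx6 probe (chr10:51450116-51450175, mm9) read -3.32, -3.20, -3.48 and -2.93 in control replicates 1 to 4 and -5.52, -3.37, -3.02 and -3.02 in mutant replicates 1 to 4. Its difference was -0.50 (SE 0.52, limma adjusted p = 0.824), and 0.099 (SE 0.15) without mutant replicate 1. The labels do not say which exons were floxed, so this probe does not check them. Of 6 endocrine markers 3, the hormone genes Gip, Ghrl and Cck, passed the test as lower, with limma adjusted p of 4.8e-06, 4.8e-06 and 9.19e-05. Ghrl differed by -4.86 and Cck by -2.49. Gip was well above background on 1 of 4 mutant arrays. With the undetected mutant arrays raised to their lowest signal above background, its group means differed 210.4-fold, which is no confidence limit. The log2 difference of Gip ran from -8.32 to -5.58 over the alternative analyses that tested it. The other 3 markers had overlapping groups, with differences of -0.27 for Chga, 0.03 for Chgb and 0.49 for Neurod1. Neurod1 read -2.63 on mutant replicate 1, against -4.33 to -3.93 in the other mutants and -4.52 to -3.81 in controls. Its lowest difference in an alternative analysis was 0.11. In whole tissue, fewer cells of a type and less RNA per cell cannot be told apart.

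The brush border is the carpet of microvilli on the upper face of the enterocyte. Enzymes anchored in its membrane cut disaccharides and short peptides into units that neighbouring transporters carry into the cell, often with sodium or protons. Sugar then leaves on the blood side through a facilitative transporter or is used by enzymes of fructose and glucose metabolism. In rodents lactase is the main disaccharidase before weaning, and sucrase-isomaltase and trehalase rise at weaning, so the tissue studied here is one that is preparing for milk.

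No member differed between the groups at an adjusted p of 0.05 in limma. The count was 0 of 36, against 15 of 25354 genes tested, or 0.0592%, of which 14 were lower and 1 was higher in the mutants. The lowest adjusted p of a member was 0.435. At an unadjusted p under 0.05 there were 4 of 36 members, or 11.1%, all with higher levels in the mutants: Slc6a20a, Pck1, Slc2a5 and Xpnpep2. Among all genes tested, 5.33% reached that threshold, 3.18% as higher and 2.15% as lower. Without mutant replicate 1 there were 3 members, all higher, and not the same set: Slc6a20a and Pck1 stayed, Sis entered, and Slc2a5 (unadjusted p = 0.0992, limma) and Xpnpep2 (0.105) left. In that fit 6.64% of all genes reached the threshold, 3.06% as higher and 3.58% as lower. The 4 mutant arrays lay above all 4 controls for 1 member, Slc6a20a (2.78%), and below them for 0 members. The same separation held for 4.67% of all genes, 3.04% as higher and 1.62% as lower, so the members' share was near the background.

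The intervals limit how large a difference these arrays leave room for. The 95% interval of the difference lay within 2-fold in either direction for 33 of 36 members and within 1.5-fold for 25. The members whose intervals reached beyond 2-fold were Sis, Xpnpep2 and Pck1. The absolute difference was under 0.3 for 31 members, with a median of 0.146 over the 36 against 0.122 over all genes tested. The members' median SD between arrays within a group was 0.205 against 0.195 over all genes. The counts of intervals and of small differences are given without the share over all genes. They therefore do not set the members apart from other genes. The difference was above 0 for 29 members and below it for 7, with a median of 0.112. Over all genes 57.1% were above 0 and the median was 0.0305. Without mutant replicate 1 the median of the members was 0.0147, that of all genes was 0.00171, and 19 of 36 members were above 0, so most of the lean towards higher values came with this array.

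**Figure D1:**
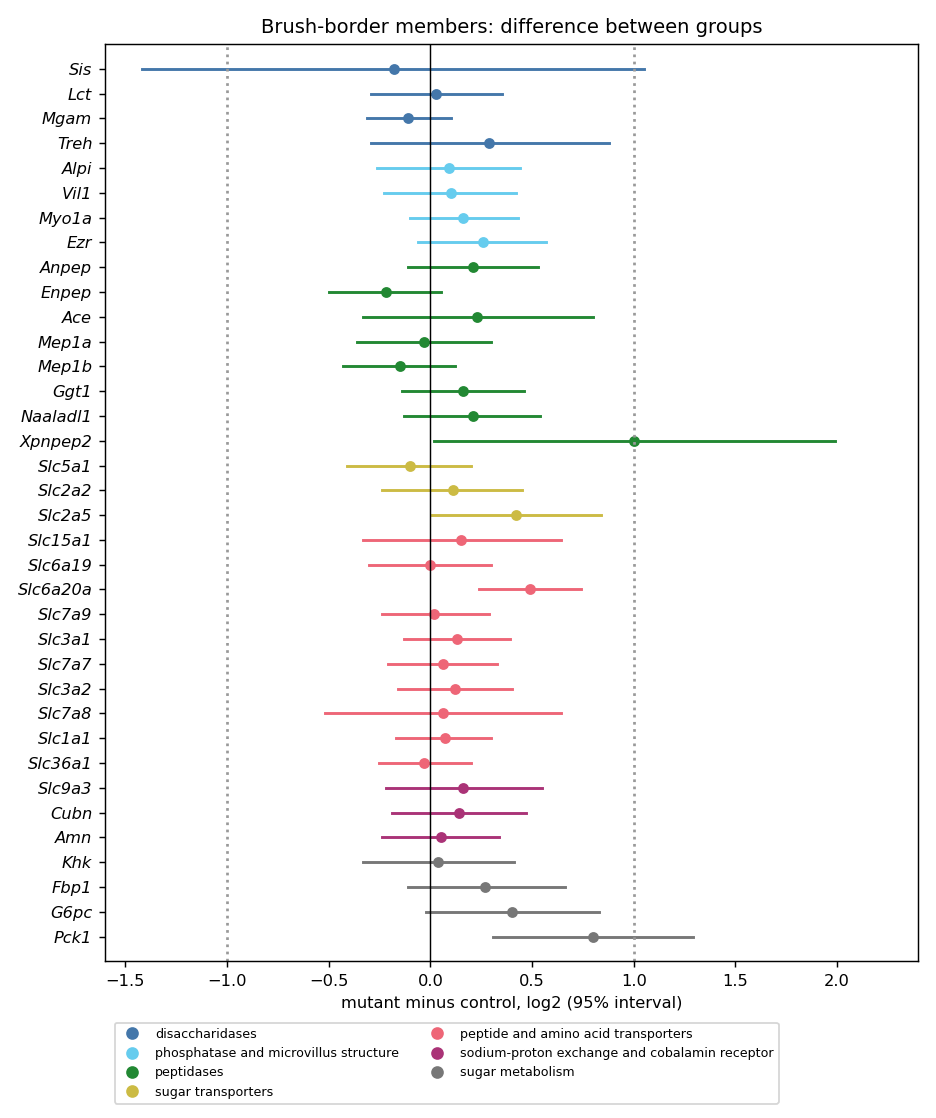
Difference between the groups for each of the 36 members, as mutant minus control in log2 units on the horizontal axis, with points for the limma estimate, bars for its 95% interval (4 arrays per group), colours for the role of the gene and dotted lines at a 2-fold difference. The bars of Sis, Xpnpep2 and Pck1 cross a dotted line, and those of the other 33 members stay between them.

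The disaccharidases finish the digestion of sugars. Lactase, encoded by Lct (probe at chr1:130181389-130181448, mm9), splits the sugar of milk. Its level was 8.11, 7.84, 8.06 and 7.88 in control replicates 1 to 4 and 8.36, 7.99, 7.88 and 7.77 in mutant replicates 1 to 4. The groups overlapped, with a difference of 0.03 (SE 0.14, limma adjusted p = 0.958) and a 95% interval of -0.29 to 0.35, which is a fold of 0.818 to 1.28. Without mutant replicate 1, the highest of the 8 arrays for this gene, the difference was -0.09 (SE 0.10). Trehalase, encoded by Treh, splits trehalose, and its level ran from -1.98 to -1.29 in controls and from -2.13 to -1.0 in mutants. Its difference of 0.29 (SE 0.26), or 0.13 (SE 0.25) without mutant replicate 1, was within the spread between replicates.

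Sucrase-isomaltase, encoded by Sis (chr3:72692810-72692869, mm9), splits sucrose and the branch points of starch. Its level was -0.82, -0.99, -0.73 and -0.83 in control replicates 1 to 4, and -2.94, -0.49, -0.44 and -0.23 in mutant replicates 1 to 4. Mutant replicate 1 was thus the lowest of the 8 arrays, while the other 3 mutants lay above every control. Over all 8 arrays the difference was -0.18 (SE 0.54, limma adjusted p = 0.935), with an interval of -1.42 to 1.05. Without mutant replicate 1 it was 0.45 (SE 0.09, 95% interval 0.23 to 0.68), and the limma adjusted p of 0.312 still missed the threshold. In that fit, mutants above all controls were found for 3.83% of all genes and mutants below all controls for 4.17%. Of the members whose direction turned without this array, Sis moved the most.

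Maltase-glucoamylase, encoded by Mgam, frees glucose from the ends of starch chains and was read by a pair of probes that differed in sign. The probe sequences are shown because they fix which parts of the transcript were measured. In each, 1 reading frame of the sense strand is free of stop codons. The first is the probe with the higher mean, which maps across 2213 bases of genome by the array annotation.
Mgam, chr6:40716016-40718228 (mm9, plus strand): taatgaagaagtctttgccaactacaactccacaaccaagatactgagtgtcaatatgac
Mgam, chr6:40613529-40613588 (mm9, plus strand): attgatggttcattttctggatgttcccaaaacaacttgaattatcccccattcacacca
The first probe stood at 2.34, 2.13, 2.37 and 2.25 in control replicates 1 to 4 and at 2.10, 2.20, 2.15 and 2.21 in mutant replicates 1 to 4, a difference of -0.11 (SE 0.09). The second gave -0.55, -0.22, -0.26 and -0.66 against -0.30, -0.34, -0.67 and -0.29, a difference of 0.02 (SE 0.14). Controls and mutants overlapped on both probes. The interval of the first, -0.31 to 0.10, put the mutant level at 0.807 to 1.07 times that of controls.

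Intestinal alkaline phosphatase and the structural proteins of the microvillus had differences above 0 in 4 of 4 genes over all 8 arrays and in 2 of 4 without mutant replicate 1. Alpi, the phosphatase, differed by 0.09 (SE 0.15), and its level ran from 5.41 to 5.70 in controls and from 5.26 to 5.99 in mutants. Vil1 (villin, an actin bundler), Myo1a (the myosin that ties the actin core to the membrane) and Ezr (ezrin, a linker between membrane and actin) differed by 0.10, 0.16 and 0.26, with SEs of 0.14, 0.12 and 0.14. The Ezr level was 4.90, 4.83, 4.99 and 4.80 in control replicates 1 to 4 and 5.51, 5.02, 5.14 and 4.88 in mutant replicates 1 to 4. These groups overlapped, and the Ezr difference without mutant replicate 1 was 0.13 (SE 0.09). In that fit Alpi was at -0.03, Vil1 at -0.02 and Myo1a at 0.09. All 4 of these genes had a limma adjusted p between 0.821 and 0.886.

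The 8 peptidases trim peptides at the cell surface, and their differences ran from -0.22 to 1.00, above 0 for 5 and below 0 for 3, as also without mutant replicate 1. Aminopeptidase N, encoded by Anpep (chr7:86966716-86966775, mm9), removes residues from the start of peptides. It read 7.30, 7.09, 7.24 and 7.35 in control replicates 1 to 4 and 7.77, 7.47, 7.47 and 7.11 in mutant replicates 1 to 4. Mutant replicates 1 to 3 were above every control and mutant replicate 4 was below all controls but replicate 2. The difference was 0.21 (SE 0.14, interval -0.11 to 0.53, limma adjusted p = 0.821), and 0.11 (SE 0.11) without mutant replicate 1. Aminopeptidase A, encoded by Enpep, removes acidic residues and had the lowest difference of the 36, -0.22 (SE 0.12, interval -0.50 to 0.05). Its control levels were 3.43, 3.27, 3.21 and 3.63, and its mutant levels were 2.97, 3.20, 3.20 and 3.28, so that only mutant replicate 4 reached into the control range. Mep1a and Mep1b, the subunits of the meprin metalloproteases, differed by -0.03 (SE 0.14) and -0.15 (SE 0.12). Ace (angiotensin-converting enzyme, a peptidase of the membrane), Ggt1 (gamma-glutamyltransferase, which acts on glutathione) and Naaladl1 differed by 0.23 (SE 0.25), 0.16 (SE 0.13) and 0.21 (SE 0.15). In all 3 of them mutant replicate 1 was the highest array, and without it the differences were 0.06, 0.05 and 0.07.

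The widest spread among the peptidases was that of Xpnpep2, which encodes aminopeptidase P, an enzyme that cuts before proline. Its probe (chrX:45489786-45489845, mm9) read 0.79, 1.61, 0.84 and 1.47 in control replicates 1 to 4 and 2.43, 0.88, 3.09 and 2.32 in mutant replicates 1 to 4. Mutant replicates 1, 3 and 4 exceeded all controls, and mutant replicate 2 lay at the level of the lower controls. The difference of 1.00 (SE 0.43, limma adjusted p = 0.821) is a fold of 2.00 with an interval of 1.01 to 3.96. The SD between arrays within a group was 0.722, and leaving out mutant replicate 2 gave 1.43 (SE 0.274, limma adjusted p = 0.359). With array weights it was 0.423 (SE 0.482). A second, dimmer probe, well above background on 6 of 8 arrays, differed by 0.65 (SE 0.54).

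The 3 sugar transporters divide the work between the faces of the cell. Slc5a1, the sodium-coupled carrier of glucose and galactose at the brush border, read 2.48, 2.14, 2.19 and 2.13 in control replicates 1 to 4 and 2.31, 2.12, 2.26 and 1.83 in mutant replicates 1 to 4. The difference of -0.10 (SE 0.13, interval -0.41 to 0.20) was within the spread between replicates. Slc2a2, the facilitative carrier of the blood side, differed by 0.11 (SE 0.15), or -0.01 without mutant replicate 1, and its control levels lay within 2.47 to 2.53 while its mutant levels ran from 2.20 to 2.95. Slc2a5, the fructose carrier of the brush border (chr4:149517775-149517834, mm9), read 0.47, 0.56, 0.12 and 0.44 in control replicates 1 to 4 and 1.23, 0.68, 0.95 and 0.42 in mutant replicates 1 to 4. The 3 highest arrays were mutants, and mutant replicate 4 lay among the controls. The Slc2a5 difference was 0.42 (SE 0.18, limma adjusted p = 0.821), a fold of 1.34 with an interval of 1.01 to 1.78, and without mutant replicate 1 it was 0.29 (SE 0.15).

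Of the 10 peptide and amino acid transporters, 9 had a difference above 0 over all 8 arrays and 4 without mutant replicate 1. For 8 of the 10 the absolute difference was below 0.15. The other two were Slc15a1 and Slc6a20a. Slc6a20a, a sodium-dependent carrier of proline and related imino acids (chr9:123546031-123546090, mm9), read 1.09, 0.81, 1.08 and 1.13 in control replicates 1 to 4 and 1.69, 1.40, 1.43 and 1.55 in mutant replicates 1 to 4. Every mutant lay above every control, and control replicate 2 was the lowest array. The difference was 0.49 (SE 0.11), a fold of 1.41 with an interval of 1.18 to 1.67. Its unadjusted p was 0.00184 and its limma adjusted p was 0.435, with a range of 0.175 to 0.905 over the 17 alternative analyses. The difference stayed between 0.42 and 0.53 in these alternatives and was 0.43 (SE 0.10) without mutant replicate 1.

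Slc15a1, the proton-coupled carrier of di- and tripeptides, differed by 0.15 (SE 0.21) and by -0.01 (SE 0.18) without mutant replicate 1. Its levels were -0.42, -0.17, 0.28 and -0.46 in control replicates 1 to 4 and 0.46, -0.13, -0.26 and -0.22 in mutant replicates 1 to 4, and the groups overlapped. Slc6a19, which carries neutral amino acids across the brush border, had a difference of 0.00 (SE 0.13, interval -0.30 to 0.30). The chains of the cystine and dibasic amino acid carrier, Slc7a9 and Slc3a1, differed by 0.02 (SE 0.12) and 0.13 (SE 0.11). The carrier chains of the blood side, Slc7a7, Slc7a8 and their shared partner Slc3a2, differed by 0.06, 0.06 and 0.12, with SEs of 0.12, 0.25 and 0.12. Without mutant replicate 1, Slc6a19, Slc7a9 and Slc7a7 were at -0.06, -0.07 and -0.04, and Slc3a1 and Slc3a2 at 0.07 and 0.00. Slc7a8 depended most on 1 array among these, since mutant replicate 1 read 3.57 against 2.33 to 2.79 in the other mutants, and without it the difference was -0.20 (SE 0.15). Slc1a1, a carrier of glutamate and aspartate, and Slc36a1, a proton-coupled amino acid carrier, differed by 0.07 (SE 0.10) and -0.03 (SE 0.10). A second Slc36a1 probe differed by 0.19 (SE 0.23), so the sign for this gene depended on the probe.

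Slc9a3, the sodium-proton exchanger that helps to supply protons for peptide uptake, differed by 0.16 (SE 0.17), with levels of 3.28 to 3.87 in controls and 3.48 to 4.01 in mutants. The array annotation places that probe on a cDNA clone, and a dimmer probe on a RefSeq transcript differed by 0.34 (SE 0.16). Cubn and Amn, cubilin and amnionless, form the receptor that takes up vitamin B12 with intrinsic factor. They differed by 0.14 (SE 0.14) and 0.05 (SE 0.13), and on both Cubn probes the difference was positive (0.20, SE 0.16, on the second). Without mutant replicate 1, Slc9a3 was at 0.10, Cubn at 0.02 and Amn at -0.05. Lrp2, encoding megalin, a partner of cubilin in other epithelia and a kidney marker here, was no member. It read 1.13, 1.76, 1.56 and 1.56 in controls and 2.07, 2.33, 1.90 and 1.85 in mutants, a difference of 0.54 (SE 0.16, limma adjusted p = 0.821) without overlap of the groups.

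The 4 genes of sugar metabolism all had a difference above 0 over all 8 arrays, with a median of 0.338, and without mutant replicate 1 these were 3 of 4, with a median of 0.181. Pck1, the cytosolic phosphoenolpyruvate carboxykinase that starts glucose synthesis (chr2:172984307-172984366, mm9), read 5.73, 4.96, 5.23 and 5.05 in control replicates 1 to 4 and 6.44, 6.11, 6.02 and 5.61 in mutant replicates 1 to 4. Control replicate 1 reached above mutant replicate 4, and apart from this pair the groups were separate. The difference was 0.80 (SE 0.22, limma adjusted p = 0.655), a fold of 1.74 with an interval of 1.24 to 2.45. Its adjusted p was lowest with array weights, at 0.129, the lowest of any member in any alternative. The Pck1 difference was 0.67 (SE 0.21) without mutant replicate 1 and ran from 0.67 to 0.96 over the alternatives.

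G6pc, the glucose-6-phosphatase that releases free glucose at the end of that pathway, read 2.17, 1.98, 2.10 and 2.04 in control replicates 1 to 4 and 2.99, 2.45, 2.44 and 2.02 in mutant replicates 1 to 4. Mutant replicates 1 to 3 lay above all controls, and mutant replicate 4 among them. The G6pc difference was 0.40 (SE 0.18, interval -0.02 to 0.83) and 0.23 (SE 0.12) without mutant replicate 1. Fbp1, fructose-1,6-bisphosphatase of the same pathway, differed by 0.27 (SE 0.17), and Khk, the kinase that traps fructose, by 0.04 (SE 0.16), and without mutant replicate 1 they were at 0.13 and -0.11. Mutant replicate 1 was the highest array for each of these 4 genes.

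**Figure D2:**
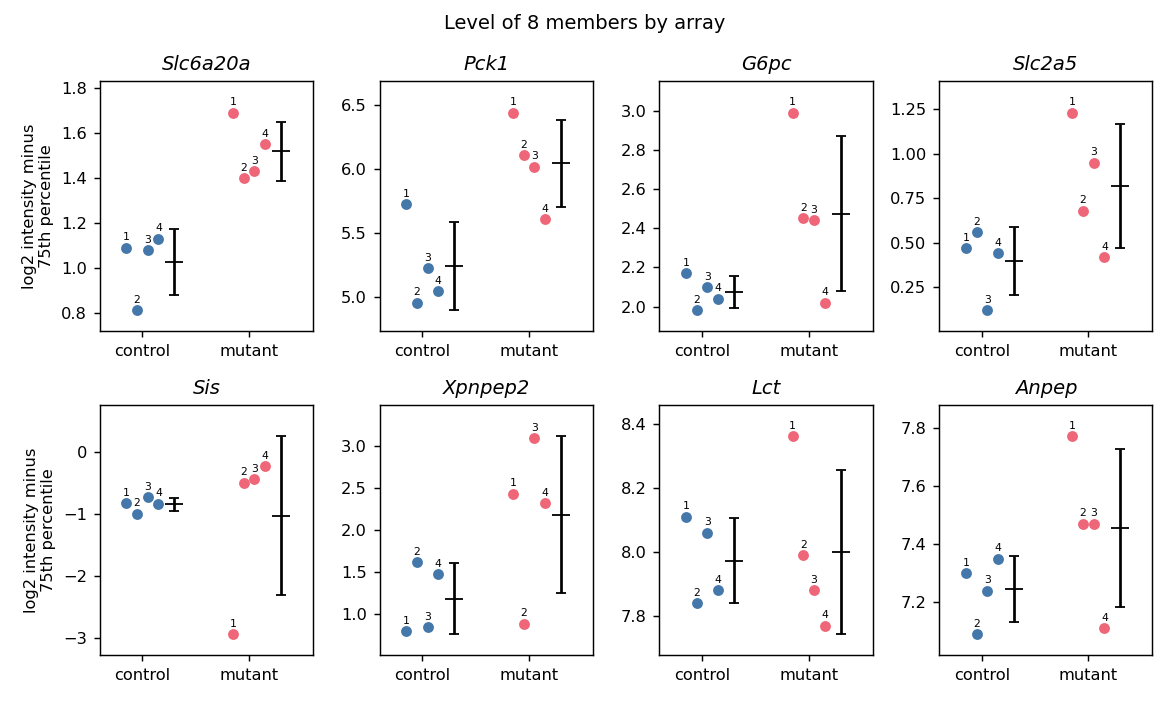
Level of 8 members on each array, as log2 intensity minus the 75th percentile of the array on the vertical axis, with each point numbered by its replicate and bars showing the mean ± SD (n = 4 per group). Slc6a20a separates the groups (0.81 to 1.13 in controls, 1.40 to 1.69 in mutants), Sis shows mutant replicate 1 at -2.94 below all other arrays, and Lct and Anpep show overlapping groups.

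Between arrays, the largest shared shift of the members was on 1 array. Mutant replicate 1 was the highest of the 8 arrays for 27 of 36 members, or 75%, against 45.6% of all genes tested, and the lowest for 3, against 21.3% of all genes. The median member on this array stood 0.451 above its control mean, against 0.181 for all genes, while on the other 7 arrays the members' median ran from -0.0795 to 0.0717. This share depended on the scaling: after quantile normalization the array was highest for 18 members (39.9% of all genes), and in the deposited values for 17 (37.6%). The array weight given to it by limma was 0.1172. The mean log2 level of 6 epithelial markers was also highest there, at 5.81 against 5.59 to 5.74 in controls. So were those of 5 goblet markers, at 5.75 against 5.38 to 5.62, and of 7 mesenchyme and smooth muscle markers, at 5.26 against 4.51 to 5.03. The mean of 5 enteric neuron and glia markers was lowest there, at -0.40 against -0.39 to 0.04 in controls. Within the epithelial list, the keratins and Cldn7 were highest on this array, while Cdh1 was lowest, at 3.44 against 3.76 to 3.96 in controls. The part of these array properties in the members' levels was not tested.

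Control replicate 2, the control with 2 floxed alleles, differed in the other direction. For 29 of 36 members it lay below the mean of the other 3 controls, against 50.6% of all genes tested, with a median of -0.106. It was the lowest control for 13 members, against 23.6% of all genes. With 1 sample of that genotype, the genotype and the sample cannot be told apart. Leaving it out moved the members' median difference from 0.112 to 0.110. Shifts of this size were not limited to control replicate 2. Control replicate 3, with 1 floxed allele, stood at a median of 0.0956 from the other controls, with 26 of 36 members above them. Mutant replicate 4 stood at -0.258 from the other mutants, mutant replicate 1 included, with 7 of 36 members above them.

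**Figure D3:**
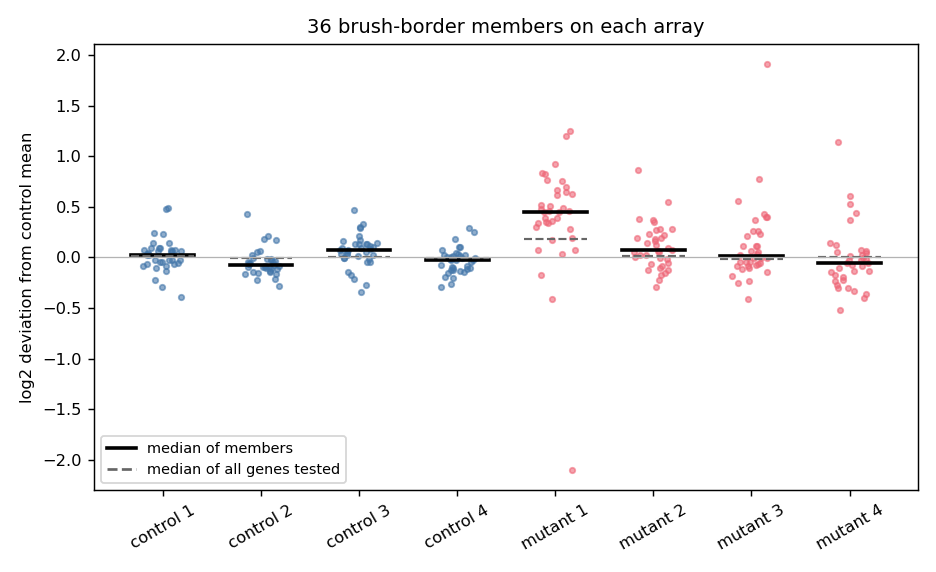
Deviation of each of the 36 members from its control mean on every array, in log2 units on the vertical axis, with a solid line at the members' median and a dashed line at the median of all genes tested. The members on mutant replicate 1 are centred at 0.451, and on the other arrays between -0.0795 and 0.0717.

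**Figure D4:**
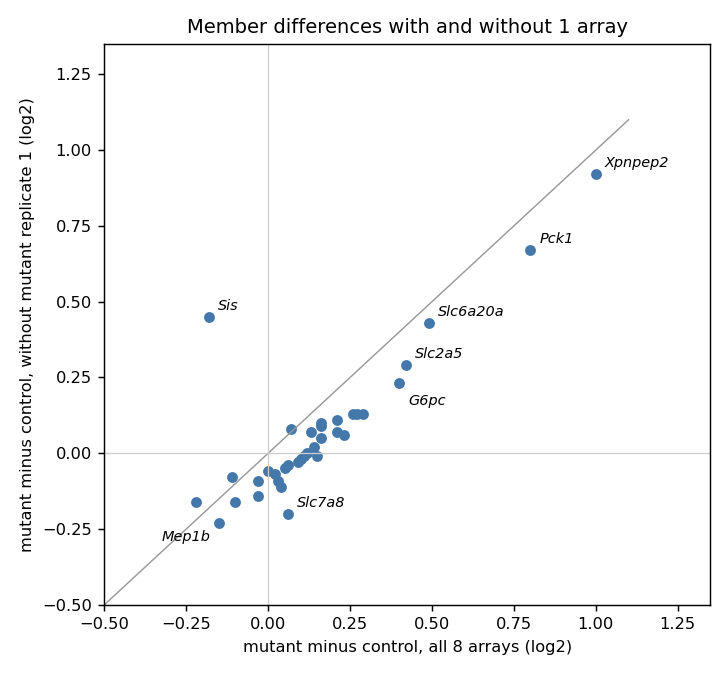
Mutant minus control difference of each member in log2 units over all 8 arrays (horizontal axis) and without mutant replicate 1 (vertical axis), with a line of equal values. Most points lie below the line, and Sis lies far above it, at -0.18 with and 0.45 without that array.

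Other genes of the same pathways were read from 5 lists with 79 genes, of which 76 were tested. None passed in limma, 0 of 76 as higher and 0 of 76 as lower, and 0 passed in any alternative. At an unadjusted p under 0.05 there were 2 of 76 higher and 5 of 76 lower, against 3.18% and 2.15% of all genes tested. The groups did not overlap for 1 as higher and 3 as lower, against 3.04% and 1.62% of all genes. The median difference of the 76 was -0.005. The 2 higher genes are sugar carriers. Slc2a7, a facilitative hexose carrier, read -3.04, -3.16, -3.97 and -3.65 in controls and -2.17, -2.62, -2.52 and -2.98 in mutants, a difference of 0.88 (SE 0.24, limma adjusted p = 0.655) without overlap. Slc5a4a, a relative of the sodium-coupled glucose carrier, differed by 0.74 (SE 0.21, limma adjusted p = 0.768), with overlapping groups.

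Of the 5 lower genes, 4 are given here, from several roles. Slc2a1, the widespread facilitative glucose carrier, read 2.91, 2.78, 2.98 and 2.82 in controls and 2.62, 2.54, 2.55 and 2.52 in mutants, a difference of -0.31 (SE 0.08, limma adjusted p = 0.655). Pls1 (plastin 1, an actin bundler of microvilli) read 2.95, 2.98, 3.00 and 2.91 in controls and 2.64, 2.80, 2.44 and 2.63 in mutants, a difference of -0.33 (SE 0.10, limma adjusted p = 0.768). For both genes every mutant lay below every control. Dpep1, a membrane dipeptidase, and Slc1a5, a glutamine carrier, differed by -0.58 (SE 0.21) and -0.26 (SE 0.10), with overlapping groups.

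By list, the counts of tested genes with a difference above 0 were 2 of 14 other hydrolases, 5 of 15 microvillus genes, 11 of 19 other transporters and 9 of 12 sugar metabolism partners. Their medians were -0.0622, -0.0378, 0.0405 and 0.0616. The fifth list holds transcription factors that control enterocyte genes, all 16 of them tested. Their differences ran from -0.21 to 0.17, with a median of 0.0217, and 0 reached an unadjusted p under 0.05. Hnf4a and Hnf4g, nuclear receptors of enterocyte genes, differed by 0.02 (SE 0.13) and -0.06 (SE 0.13). Cdx2, the homeobox factor of intestinal identity, and Gata4, a factor of the proximal small intestine, differed by 0.12 (SE 0.21) and 0.16 (SE 0.14). Prdm1, a repressor of adult-type enterocyte genes before weaning, differed by 0.05 (SE 0.11).

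The sequence before the transcription start was searched for short motifs of such factors. Windows of 250 bases upstream of a start were taken from RefSeq (GRCm38.p6), which held 43 windows for 34 of the 36 members. The windows of Slc6a20a and Pck1 are shown because these members had the lowest p-values, and those of Sis and Lct because they are the disaccharidases of the adult and the suckling gut. Each runs 5′ to 3′ along the strand of the gene and ends at the base before the start, and capitals mark the motif matches.
Slc6a20a, chr9:123678833-123679082 (GRCm38.p6, minus strand): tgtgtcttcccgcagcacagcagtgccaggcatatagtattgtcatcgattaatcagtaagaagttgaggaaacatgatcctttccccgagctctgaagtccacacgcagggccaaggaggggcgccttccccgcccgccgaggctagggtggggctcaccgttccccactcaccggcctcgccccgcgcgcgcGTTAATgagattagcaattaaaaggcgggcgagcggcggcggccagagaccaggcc
Pck1, chr2:173152823-173153072 (GRCm38.p6, plus strand): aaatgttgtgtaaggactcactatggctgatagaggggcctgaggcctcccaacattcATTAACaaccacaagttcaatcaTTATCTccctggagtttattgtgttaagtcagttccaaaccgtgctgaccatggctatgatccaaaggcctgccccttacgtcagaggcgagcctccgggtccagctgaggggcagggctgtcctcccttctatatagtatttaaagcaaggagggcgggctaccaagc
Sis, chr3:72967864-72968113 (GRCm38.p6, minus strand): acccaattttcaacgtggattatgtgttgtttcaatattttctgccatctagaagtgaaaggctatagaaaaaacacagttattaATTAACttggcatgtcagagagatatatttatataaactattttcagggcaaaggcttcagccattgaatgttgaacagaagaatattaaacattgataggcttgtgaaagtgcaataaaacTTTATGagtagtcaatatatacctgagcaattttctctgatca
Lct, chr1:128328319-128328568 (GRCm38.p6, minus strand): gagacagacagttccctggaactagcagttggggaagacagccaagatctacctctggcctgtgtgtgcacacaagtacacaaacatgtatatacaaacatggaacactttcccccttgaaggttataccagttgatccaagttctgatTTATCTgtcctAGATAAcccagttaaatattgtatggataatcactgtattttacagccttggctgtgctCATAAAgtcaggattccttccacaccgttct
Every motif was searched on both strands, and the motifs do not hold one another. GTTAAT, the core of the Hnf1 site, was found in 7 of 43 member windows (16.3%) against 6.43% of 32851 windows in all. These were windows of G6pc, Khk, Pck1, Sis, Slc36a1, Slc6a20a and Slc7a7. The motif AGATAA of GATA factors was found in 9 of 43 (20.9%) against 9.99%. The genes were Fbp1, Ggt1, Lct, Mgam, Pck1, Slc3a1, Slc7a7 and Slc7a9. TTTATG, a Cdx site, was found in 2 of 43 (4.65%), those of Lct and Sis, against 10.8%. CAAAGTCCA, an Hnf4 site, was found in 3 of 43 (6.98%), those of Alpi, Slc3a1 and Treh, against 0.384%. A pattern like the X-box of Rfx factors, GTNNCC followed after 3 bases by GNAAC, was found in 1.8% of all windows and in 0 of the 43 member windows, which says that these letters are not in these windows. A match is a run of letters, and no binding was measured.

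Markers of other cells and regions were read beside these results, as log2 differences and as summed linear levels relative to the 75th percentile. Of 6 epithelial markers 3 differed upwards, with a range of -0.22 to 0.23. Their summed level was 388.2 to 428.8 in controls and 399.2 to 509.9 in mutants, the highest on mutant replicate 1. Mesenchyme and smooth muscle markers were higher for 7 of 7 genes, by 0.08 to 0.21, with none past the test, against 57.1% of all genes above 0. Mutant replicate 1 was the highest array for each of them. Over the alternatives the lowest differences were -0.01 for Vim, -0.03 for Col1a1 and -0.02 for Col3a1. They were 0.05 for Acta2, Myh11, Actg2 and Des. The summed level of these markers was 248.3 to 358.7 in controls and 321.1 to 432.8 in mutants.

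Of 6 acinar pancreas markers 4 were tested and the other two were too dim. All 4 had a higher level in mutants at an unadjusted p under 0.05 and 0 passed, with a summed level of 0.7411 to 1.964 in controls and 2.514 to 13.19 in mutants. Amy2a5, an amylase, read -5.14, -6.64, -1.88 and -4.31 in controls, where it was well above background on 3 of 4 arrays, and 1.09, 0.16, 1.83 and 3.29 in mutants. With the undetected control array raised to its lowest signal above background, the group means of Amy2a5 differed 60.13-fold, which is no confidence limit. The log2 difference was 6.09 (SE 1.0, limma adjusted p = 0.15), and 4.48 to 6.96 over the alternatives that tested it. Amy2a5 passed in 3 of the 17 alternatives (adjusted p 0.024 to 0.448). Cela2a, an elastase, was well above background on 4 mutant arrays and 0 control arrays. With its control arrays raised in the same way, its group means differed 3.639-fold. The log2 difference without that step was 3.95, and 1.08 to 4.34 over the alternatives that tested it. The limma adjusted p was 0.114 (0.0197 to 0.604 over the alternatives, past the threshold in 2). Cela2a entered the test through the mutant arrays alone, so a higher mutant level was built into its being tested. Its p-values, and its place among the 4 markers above, are therefore no support. Of 3 tested markers of the distal intestine 2 were higher, and Fabp6, the ileal bile acid binding protein, read 2.30, 4.10, 3.43 and 4.50 in controls and 6.48, 6.10, 5.81 and 5.25 in mutants. Its difference of 2.33 (SE 0.46, limma adjusted p = 0.295) missed the threshold although the groups were separate. The summed distal level, 5.403 to 23.13 in controls and 38.4 to 89.75 in mutants, was mostly Fabp6, and the other two distal markers, Slc10a2 (-0.32, SE 0.47) and Osr2 (0.02, SE 0.16), had overlapping groups. The 4 proximal markers summed to 15.68 to 17.59 in controls and 14.62 to 17.56 in mutants. Of 4 kidney tubule markers 3 were tested and all 3 had a difference above 0. Their summed level, 2.352 to 3.537 in controls and 3.757 to 5.234 in mutants, was mostly Lrp2. The groups of Slc22a6 (0.10, SE 0.12) and Slc34a1 (0.29, SE 0.31) overlapped. The acinar, Lrp2 and Fabp6 levels moved with the same contrast as those of Slc6a20a and Pck1, and their part in them was not tested.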

How the data were processed

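Per the labels' protocols, each single-colour array was hybridised with RNA amplified from an input of 100 ng. Per the file headers, the authors deposited linear spot intensity values from Feature Extraction 10.10.1.1 (annotation on mm9), background-corrected and not scaled between arrays. The authors' deposited intensity table, with no processing stated in the sources used here, served as an alternative.

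From the processed intensity, log2 values were taken minus the log2 75th percentile of each array's non-control spots. Outlier spots were dropped, 117 to 157 per array, and 0 spots were saturated. Spots of a probe were averaged, and a gene was tested if its probe was well above background on at least 4 of 8 arrays. The test was limma's (version 3.58.1, R 4.3.3), two-sided, with lmFit and eBayes and the group as the only term. Its p-values were adjusted by Benjamini-Hochberg over 25354 genes, and the threshold was 0.05. The procedure was tested on simulated data. The number of arrays limits the precision.

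The rule for named genes took all members, Rfx6, list genes that passed in any analysis, up to 5 per list with the lowest p, and markers set beside a result. The values of 1 list gene are not reported here. Members, lists and motifs were chosen with earlier results of these data known.

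The 17 alternatives were quantile normalization, normexp background correction with an offset of 50, the deposited values, 2 other filters, the mean over probes, array weights, slide row and replicate number as blocks, and leaving out each array. No gene models of mm9 were used here.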

Additional observations from a re-analysis of the deposited data

Results flagged for a closer look

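In 74 groups of 4 arrays (each member and Rfx6, in controls and in mutants), 5 had a highest or lowest array whose gap to its neighbour exceeded the 95% limit of Dixon's test, where chance at 1 in 20 gives 3.7. Of the 5, 2 were on mutant replicate 1. Sis read -2.94 there, against -0.49 to -0.23 in the other mutants. Rfx6 read -5.52 on the same array, where its probe was not well above background, against -3.37 to -3.02. The other 3 were controls. Slc5a1 read 2.48 in control replicate 1, against 2.13 to 2.19. Slc6a19 read 3.14 in control replicate 3, against 2.66 to 2.72. Slc6a20a read 0.81 in control replicate 2, against 1.08 to 1.13, and without that array its difference was 0.417.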

How the results depend on the processing

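No member and no gene of the pathway lists passed in limma under any of the 17 alternatives. Of 612 member differences recomputed, 570 kept their sign and 42, in 14 members, turned it. Apart from Sis, the members that turned had differences of at most 0.152 in size. With 4 arrays per group, differences of this size are within the error. Over all genes 15 passed, 27 with normexp correction and 42 with array weights, and 10 to 22 when an array was left out. The members' median of 0.112 ran from 0.0147 (without mutant replicate 1) to 0.162 when an array was left out, and was 0.0667 after quantile normalization and 0.0562 with the deposited values. The cause of these shifts was not tested.

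The replicate numbers do not pair the samples: deviations of same-numbered samples correlated at -0.0923, 0.0571, -0.0708 and 0.0912 across genes. With the replicate block 7 genes passed and 0 members did.

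The signs turned as follows. Quantile normalization gave Lct -0.103, Vil1 -0.0185, Slc6a19 -0.0222, Slc7a9 -0.0521, Slc7a7 -0.0405 and Amn -0.0139. The deposited values gave Lct -0.095, Vil1 -0.00954, Slc6a19 -0.0329, Slc7a9 -0.0465, Slc7a7 -0.0181 and Amn -0.0399. Array weights gave Sis 0.37, Slc6a19 -0.0389, Slc7a9 -0.0172, Slc7a7 -0.0239, Slc7a8 -0.237 and Khk -0.0294. Normexp gave Slc6a19 -0.0141, and the mean over probes gave Slc36a1 0.0839. Leaving out arrays gave ranges of -0.448 to 0.454 for Sis, -0.0889 to 0.108 for Lct, -0.0339 to 0.21 for Alpi and -0.0198 to 0.213 for Vil1. The ranges were -0.137 to 0.0588 for Mep1a, -0.00814 to 0.241 for Slc2a2 and -0.0143 to 0.309 for Slc15a1. They were -0.0616 to 0.112 for Slc6a19, -0.0705 to 0.0744 for Slc7a9, -0.0387 to 0.131 for Slc7a7 and -0.198 to 0.214 for Slc7a8. Slc36a1 ran from -0.0907 to 0.0148, Amn from -0.0502 to 0.122 and Khk from -0.112 to 0.136. Of the 22 turns with an array left out, 12 came without mutant replicate 1.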
